A study of Mus musculus with 6 samples.

Results

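TNF superfamily ligands are the cytokines and membrane proteins that engage the TNF receptors. Here 9 of these genes (Tnf, Lta, Ltb, Tnfsf8, Tnfsf10, Tnfsf11, Tnfsf14, Tnfsf15 and Cd40lg), of 55573 genes in the count files, were followed in mouse splenic regulatory T cells (Tregs). They were taken by symbol from a list of the family, after mapping the Ensembl identifiers to GRCm38 gene symbols. They were selected on family membership, by a list that names no measured value but was drawn up with the genotype contrast of these 6 libraries known, so the values of the 9 genes in the comparison of genotypes are given as a description, with no p for single members. The family holds a further 9 ligand genes, which are described separately.

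RNA was sequenced from 3 libraries of Tregs labelled Nfkb2-/- and from 3 libraries of wild-type Tregs, which the labels call biological repeats. Nfkb2 encodes p100, the precursor of the NF-kB subunit p52. All cells were splenic and came from chimeric mice, rebuilt with transplanted bone marrow and called bi-parental by the submitters. All were rested in warm medium before lysis. No treatment was given, and strain, age and sex of donors and hosts are not stated in the labels. Values after ± are SDs over 3 libraries of a genotype. The series title places the comparison in a study of the role of p100 in Treg homeostasis and activation.

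Most of these ligands are made as trimeric membrane proteins, and several are also shed or secreted. Their receptors recruit TRAF adaptors and activate NF-kB. A group of them, among which are the receptors for lymphotoxin, CD40 ligand and RANKL, releases the kinase NIK, which lets p100 be processed to p52 in the noncanonical branch of the pathway. In T cells the ligands serve as effector signals to B cells, dendritic cells and stroma, and as costimulators between T cells.

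Library totals lay between 12005273 and 17278521 counts, and 13347 genes passed the filter on low counts. Levels are given in CPM, counts scaled to library size with TMM factors. Nfkb2 averaged 288 ± 31.3 CPM in Nfkb2-/- Tregs against 553 ± 6.99 CPM in wild-type Tregs, and its log2 fold change was -0.94 (SE 0.13) at an edgeR adjusted p of 0.0203. It was thus lower but not absent in the libraries labelled Nfkb2-/-. Foxp3 and Il2ra, which define Tregs, were at 448 to 576 and 410 to 496 CPM in the Nfkb2-/- libraries. In the wild-type libraries they were at 407 to 622 and 525 to 635 CPM, so Il2ra was lower in Nfkb2-/- without overlap. Of 9 Treg markers, 7 had a positive and 2 a negative log2 fold change. An edgeR adjusted p under 0.05 was held by 0 of them, beside 1.42% of all genes tested. Ikzf2 was higher without overlap, at a log2 fold change of 0.65 (SE 0.15, adjusted p by edgeR = 0.0875). Wild-type replicate 1 stood apart: its log2 CPM correlated across genes with the other libraries at r from 0.941 to 0.955, against 0.968 to 0.991 for all other pairs, genes not being independent replicates. The genotypes also differed in Xist, at 841, 883 and 592 CPM in Nfkb2-/- replicates 1 to 3 and at 1.94 to 16.5 CPM in wild type. The sum of 4 Y-linked genes was 40.0, 138 and 275 CPM in Nfkb2-/- replicates 1 to 3 and 465 to 498 CPM in wild type. Every Nfkb2-/- library thus held both Xist and Y-linked RNA, the latter rising from replicate 1 to 3, and the reason was not tested. Sex of the cells and genotype therefore cannot be told apart in what follows. The summed level of 12 B cell markers was 36.4, 48.6 and 63.8 CPM in Nfkb2-/- replicates 1 to 3 and 96.1, 319 and 210 CPM in wild-type replicates 1 to 3. Of 13 myeloid and dendritic cell markers the sum was 29.4 to 52.9 CPM in Nfkb2-/- and 22.3 to 99.6 CPM in wild type. For 6 natural killer cell markers it was 19.7 to 30.2 CPM and 8.90 to 15.4 CPM. Most of that difference was Eomes, at 15.0 to 21.8 CPM in Nfkb2-/- and 4.26 to 7.60 CPM in wild type. Prf1 averaged 4.71 and 4.88 CPM, and Gzma 1.05 and 1.02 CPM. The sum of 2 CD8 T cell markers was 10.4 to 13.7 CPM in Nfkb2-/- and 13.3 to 22.7 CPM in wild type. For 12 helper T cell genes it was 248 to 277 CPM in Nfkb2-/- and 265, 379 and 359 CPM in wild-type replicates 1 to 3. Most of each helper sum was Bcl6, at 201 to 222 and 218 to 254 CPM. A part of such cells in the ligand values was not tested.

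The ligands shared no common direction. Mean levels of Tnfsf15, Tnfsf11, Tnfsf8, Tnfsf10, Tnfsf14 and Ltb were higher in Nfkb2-/- Tregs, and those of Tnf, Lta and Cd40lg were lower. In bulk RNA, fewer expressing cells and less RNA per cell cannot be told apart. The median log2 fold change was 0.30 over the 9 ligands, beside -0.03 over all genes tested. By edgeR's quasi-likelihood test over all genes, at a Benjamini-Hochberg adjusted p under 0.05, 1 ligand (Tnfsf15) was called higher and 0 were called lower, where 1.01% of all genes tested were called higher and 0.405% lower, or 1.42% in all. At an unadjusted p under 0.05 there were 4 ligands, beside 13.6% of all genes tested. No overlap of CPM between the genotypes was seen for 3 ligands that were higher (Tnfsf8, Tnfsf11 and Tnfsf15) and for 1 that was lower (Lta), beside 10.7% and 9.9% of all genes tested, or 20.6% in either direction. Since the ligands were listed with these values known, nothing is read from these counts. All 9 passed the count filter, but Tnfsf15 did so through its Nfkb2-/- level: it was over the minimum of 0.791 CPM in 3 Nfkb2-/- and 2 wild-type libraries, where 3 libraries are needed.

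**Figure D1:**
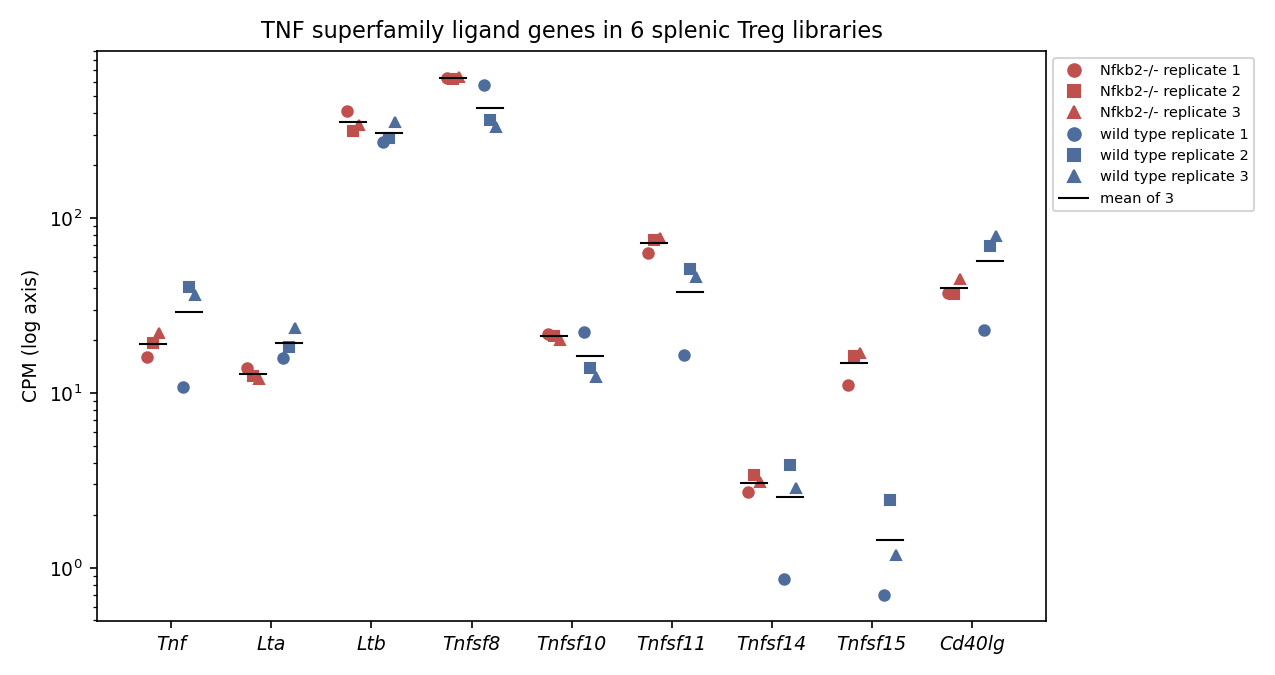
CPM of the 9 ligand genes (log axis) in 3 Nfkb2-/- libraries (red) and 3 wild-type libraries (blue), with marker shapes for replicate numbers and black lines for means of 3. Tnfsf15 separates the genotypes most widely, and wild-type replicate 1 (blue circle) is the lowest of the 6 libraries for 6 of the 9 genes, as it is for 31.3% of all genes tested.

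Tnfsf15 encodes TL1A, the ligand of death receptor 3, through which Tregs are known to be costimulated. It had the largest log2 fold change of the 9 ligands, with 11.2, 16.2 and 16.9 CPM in Nfkb2-/- replicates 1 to 3, against 0.701, 2.45 and 1.18 CPM in wild-type replicates 1 to 3. Every Nfkb2-/- library was thus well above every wild-type library. These levels rest on 135, 230 and 207 counts in the Nfkb2-/- libraries and on 13, 31 and 14 counts in the wild-type libraries. The log2 fold change was 3.38 (SE 0.43), and it ran from 3.01 to 4.00 when each library in turn was left out. Tnfsf15 was listed with this contrast known and passed the filter through its Nfkb2-/- level, so its edgeR call is a description only. That call was lost without Nfkb2-/- replicate 1, 2 or 3 and without wild-type replicate 3.

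The gene lies at chr4:63727084-63745113 (GRCm38, minus strand), and its promoter is shown because of this difference. The sequence is RefSeq's (GRCm38.p6), chr4:63745010-63745309 on the minus strand around the start site. No base is in capitals, as the window held no match of the kB consensus, the site that NF-kB dimers bind, on either strand.
Tnfsf15 promoter: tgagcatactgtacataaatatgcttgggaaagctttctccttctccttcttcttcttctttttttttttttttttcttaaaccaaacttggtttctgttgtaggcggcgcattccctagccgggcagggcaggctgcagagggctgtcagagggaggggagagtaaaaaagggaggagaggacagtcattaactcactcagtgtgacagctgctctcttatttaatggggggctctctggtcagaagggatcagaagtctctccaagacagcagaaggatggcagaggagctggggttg

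Tnfsf8 encodes CD30 ligand, a membrane protein of activated T cells. It is the neighbour of Tnfsf15, at chr4:63831308-63861347 on the same strand, with 86.2 kb between them and no annotated gene in that gap. Tnfsf8 had 632, 626 and 644 CPM in Nfkb2-/- replicates 1 to 3, against 579, 366 and 331 CPM in wild-type replicates 1 to 3. The genotypes did not overlap, yet wild-type replicate 1 came close to the Nfkb2-/- libraries. The log2 fold change was 0.58 (SE 0.22), far below that of its neighbour.

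Tnfsf11 encodes RANKL, the osteoclast differentiation factor, which T cells also use to signal to dendritic cells. It had 63.1, 75.1 and 77.3 CPM in Nfkb2-/- replicates 1 to 3, against 16.6, 51.1 and 46.0 CPM in wild-type replicates 1 to 3. All Nfkb2-/- libraries were above all wild-type libraries, with wild-type replicate 1 far below the other two. The log2 fold change was 0.93 (SE 0.37), and 0.56 without wild-type replicate 1.

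Tnf, Lta and Ltb, the founding cytokine genes of the family, lie side by side on chromosome 17. Tnf encodes TNF. Lta encodes lymphotoxin alpha, which acts as a secreted homotrimer or joins lymphotoxin beta, the product of Ltb, at the membrane to engage the lymphotoxin beta receptor. In GRCm38 Ltb occupies chr17:35194439-35196320 on the plus strand, Tnf chr17:35199381-35202007 and Lta chr17:35203165-35205351, both on the minus strand, and none of the 3 overlaps another. Annotated miRNA genes lie inside Ltb (Mir6973a) and Lta (Mir6974). Mean levels of Tnf and Lta were lower in Nfkb2-/- Tregs and that of Ltb was higher.

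Tnf had 16.1, 19.4 and 22.1 CPM in Nfkb2-/- replicates 1 to 3, against 10.8, 40.6 and 36.3 CPM in wild-type replicates 1 to 3. The genotypes overlapped: wild-type replicate 1 was the lowest of all libraries while the other wild-type libraries were the highest. The log2 fold change was -0.60 (SE 0.43) with all libraries and -1.01 without wild-type replicate 1.

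Lta had 13.9, 12.5 and 12.1 CPM in Nfkb2-/- replicates 1 to 3, against 15.7, 18.4 and 23.6 CPM in wild-type replicates 1 to 3. Every Nfkb2-/- library was below every wild-type library, and the Nfkb2-/- libraries lay close together. The log2 fold change was -0.58 (SE 0.19), and it stayed negative, from -0.71 to -0.41, with each library left out in turn.

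Ltb had 412, 315 and 342 CPM in Nfkb2-/- replicates 1 to 3, against 274, 286 and 356 CPM in wild-type replicates 1 to 3. The genotypes overlapped and the log2 fold change was 0.22 (SE 0.16). B cells also express Tnf, Lta and Ltb. The summed B cell markers given above did not overlap between genotypes and were lower with Nfkb2-/-, and 0 of the 12 markers were without counts in any library. Their part in the values of these 3 genes was not tested.

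The regulatory sequences of the 3 genes differ, which is why those of Ltb and Tnf are shown. The kB consensus was searched on both strands in the 300-base RefSeq promoters (GRCm38.p6), which were found for 8 of the 9 ligands, with no entry for Cd40lg. Of these 8, 1 (Ltb) held a match, from 87 to 78 bases before the start site, beside 8.46% of 32841 promoters of the same length. The match is in capitals, in the Ltb window at chr17:35194257-35194556 (plus strand).
Ltb promoter: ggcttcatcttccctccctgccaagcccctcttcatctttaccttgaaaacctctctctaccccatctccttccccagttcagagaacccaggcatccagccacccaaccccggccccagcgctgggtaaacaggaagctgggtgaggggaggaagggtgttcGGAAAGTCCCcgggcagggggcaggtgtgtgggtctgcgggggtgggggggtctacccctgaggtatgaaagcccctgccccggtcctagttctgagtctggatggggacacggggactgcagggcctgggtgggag
The Tnf window at chr17:35201958-35202257 (minus strand) held no such match. It held the TATA box letters TATAAA from 29 to 24 bases before the start site. These letters occurred anywhere in the window, on either strand, in 13.6% of promoters and also in those of Lta and Tnfsf11, at other positions. Of the other motifs searched on both strands, TGANTCA was in the Tnfsf14 window and 7.81% of promoters, GGGCGG in the Tnf window and 35.7%, and GGAAA in all 8 windows and 61.4%, where in Ltb it overlapped the kB match. No match says only that these letters are not in these windows.
Tnf promoter: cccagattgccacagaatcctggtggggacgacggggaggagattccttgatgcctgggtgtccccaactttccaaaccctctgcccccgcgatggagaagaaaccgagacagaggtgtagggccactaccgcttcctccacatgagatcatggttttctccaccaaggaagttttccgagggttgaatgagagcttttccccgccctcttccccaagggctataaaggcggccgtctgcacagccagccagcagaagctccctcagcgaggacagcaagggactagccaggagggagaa

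Tnf mRNA is known for an AU-rich element in its 3' untranslated region, through which proteins of the tristetraprolin family speed its decay. The nonamer TTATTTATT, read on the transcript strand only, occurred 5 times, with overlaps, in the longest annotated 3' untranslated region of Tnf and 1 time in that of Lta, and in none of the other 7 ligands. Among 21020 genes 7.66% held it. For each gene the 30-base stretch with the most copies is given with the nonamers in capitals, which for Tnf holds 4 of the 5, in GENCODE M21 transcripts at chr17:35199681-35199710 and chr17:35203406-35203435 (GRCm38, minus strand).
Tnf site: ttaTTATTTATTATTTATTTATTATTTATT
Lta site: tttatggagagaaaagttaagTTATTTATT
The 2 ligands with this element were both among the 3 with a lower mean in Nfkb2-/- Tregs. Cd40lg was the third and held no copy. The ligands were listed with this contrast known, and Tnf overlapped between genotypes. A part of the element in these values was not tested.

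Cd40lg encodes CD40 ligand, the helper T cell signal to CD40 on B cells and dendritic cells. It lies on the X chromosome, at chrX:57212143-57224042 (GRCm38, plus strand), so the difference in Xist between the genotypes stands beside its values. Cd40lg had 37.1, 36.8 and 45.1 CPM in Nfkb2-/- replicates 1 to 3, against 22.8, 69.6 and 79.3 CPM in wild-type replicates 1 to 3. As for Tnf, wild-type replicate 1 was below and the other wild-type libraries were above all Nfkb2-/- libraries. The log2 fold change was -0.52 (SE 0.40) with all libraries and -0.91 without wild-type replicate 1.

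Tnfsf10 encodes TRAIL, a ligand that can induce apoptosis, and Tnfsf14 encodes LIGHT, a T cell costimulator that binds the herpesvirus entry mediator. Tnfsf10 had 21.8, 21.3 and 20.1 CPM in Nfkb2-/- replicates 1 to 3, against 22.4, 13.9 and 12.3 CPM in wild-type replicates 1 to 3. Wild-type replicate 1 was at the level of the Nfkb2-/- libraries, and the log2 fold change was 0.37 (SE 0.24). Tnfsf14 had 2.73, 3.38 and 3.09 CPM in Nfkb2-/- replicates 1 to 3, against 0.863, 3.88 and 2.86 CPM in wild-type replicates 1 to 3. Its genotypes overlapped, and its log2 fold change of 0.30 (SE 0.50) became -0.13 without wild-type replicate 1, the only change of sign among the 9 ligands in the alternatives run.

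**Figure D2:**
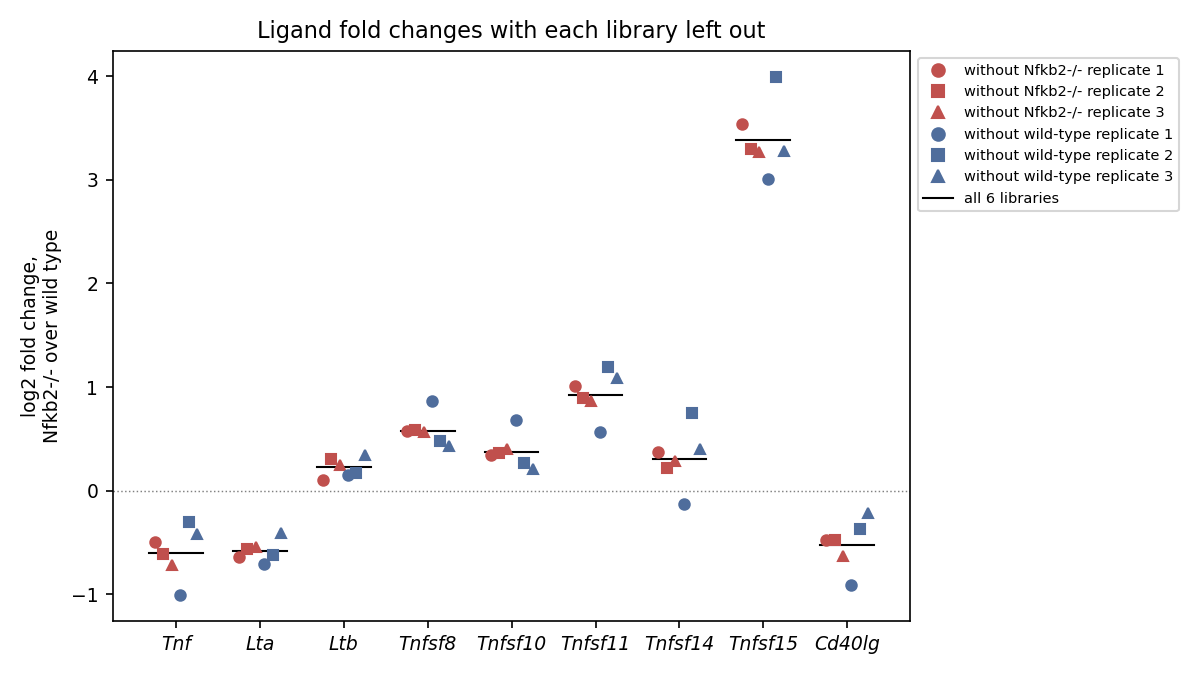
Log2 fold change of Nfkb2-/- over wild type for the 9 ligands in edgeR fits that leave out 1 library, with red for an Nfkb2-/- and blue for a wild-type library left out and black lines for all 6 libraries. Blue circles, without wild-type replicate 1, lie apart for most genes, as for Tnf (-1.01 against -0.60).

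Of the wild-type libraries, replicate 1 lay farthest from the others for Tnf, Tnfsf8, Tnfsf10, Tnfsf11, Tnfsf14 and Cd40lg. The highest level was 1.03 to 1.51 times the lowest among the Nfkb2-/- libraries, and 1.30 to 4.49 times among the wild-type libraries, where the medians over all genes tested were 1.24 and 1.53. In wild-type replicate 1, Tnf, Tnfsf11, Tnfsf14, Tnfsf15 and Cd40lg stood at 28.1%, 34.1%, 25.6%, 38.6% and 30.6% of the mean of wild-type replicates 2 and 3. Under 60% of that mean were 16.3% of all genes tested. Tnfsf8 and Tnfsf10 went the other way, at 166% and 170% of it.

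Without wild-type replicate 1, the edgeR test over 13651 genes called 4 ligands higher (Tnfsf8, Tnfsf10, Tnfsf11 and Tnfsf15) and 3 lower (Tnf, Lta and Cd40lg), where it called 4.6% of all genes higher and 4.44% lower, 9.04% in all. Ltb and Tnfsf14 were not called. Wild-type replicate 1 was left out here for its distance from the other libraries over all genes, and the ligands were listed with such results known, so these counts are a description as well.

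Levels were compared between genes per kilobase of exon. Ltb was the highest ligand at 235 ± 33.0 CPM per kb in Nfkb2-/- Tregs, against 201 ± 29.2 CPM per kb in wild-type Tregs. Tnfsf8 followed at 167 ± 2.34 and 112 ± 35.2 CPM per kb. These genes made up 79.3% to 83.5% of the summed level per kb of the 9 ligands in Nfkb2-/- libraries and 70.0% to 87.3% in wild type. By the mean of the 6 libraries they exceeded 98.7% and 97.8% of all genes tested.

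Below them in Nfkb2-/- came Tnfsf11 at 32.1 and Cd40lg at 31.7 CPM per kb, Tnf at 11.7 and Lta at 9.28, Tnfsf15 at 4.40 and Tnfsf10 at 4.00, and Tnfsf14 at 1.66. The ranges of the libraries overlapped within each of these pairs of neighbours, and not between neighbours from different pairs. In wild type the order was Cd40lg at 45.8 CPM per kb, Tnf at 17.8, Tnfsf11 at 16.9, Lta at 13.9, Tnfsf10 at 3.08, Tnfsf14 at 1.37 and Tnfsf15 at 0.431. There the ranges of Cd40lg and Tnf, Tnf and Tnfsf11, Tnfsf11 and Lta, and Tnfsf14 and Tnfsf15 overlapped. Tnfsf15 was thus the seventh of the 9 ligands in Nfkb2-/- Tregs and the last in wild type.

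**Figure D3:**
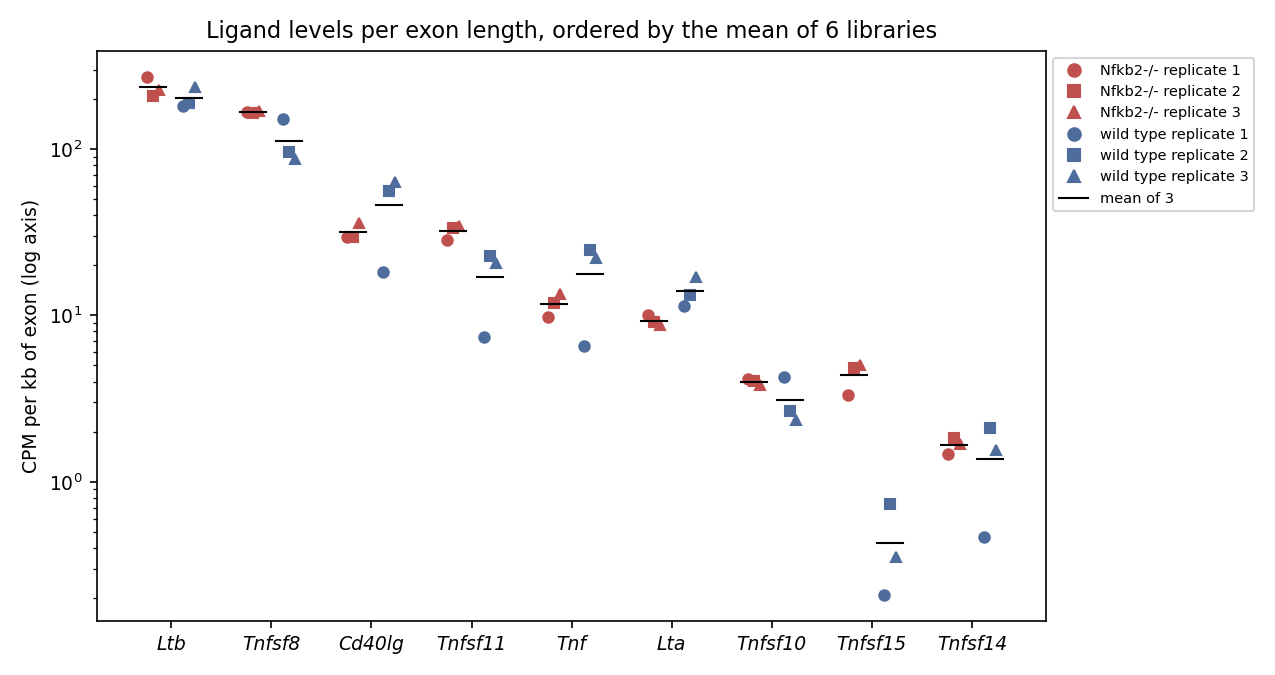
Level of the 9 ligands in CPM per kilobase of exon (log axis), ordered by the mean of the 6 libraries, with Nfkb2-/- in red, wild type in blue and black lines for means of 3. Ltb and Tnfsf8 lie above all other ligands, and Tnfsf14 and Tnfsf15 have the lowest wild-type means.

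The genes whose pattern over the 6 libraries was closest to the 3 ligands with the largest changes were found by the root-mean-square difference of log2 CPM, centred on each gene's mean, among 11233 protein-coding genes. For Tnfsf15 they were Rnf165, Msc and Mid2, at 0.30, 0.31 and 0.33 log2 units, where the median over all these genes was 1.77. In wild-type Tregs Rnf165 and Msc averaged 0.0791 and 0.0527 CPM, levels at which log2 CPM is set mainly by the prior count of 2, and their fitted log2 fold changes were 5.05 and 5.07. For Tnfsf11 they were Armcx4, Pmaip1 and Acot7, at 0.12, 0.12 and 0.13, where the median was 0.79. For Tnf the closest was another of the ligands, Cd40lg, at 0.14, followed by Prag1 at 0.15 and Pecr at 0.16, where the median was 0.70. Both Tnf and Cd40lg were lowest in wild-type replicate 1 and highest in wild-type replicates 2 and 3.

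Of the other 9 ligands of the family, 4 passed the count filter, and edgeR called 0 higher or lower, beside 1.42% of all genes tested. At an unadjusted p under 0.05 there was 1 of them, beside 13.6%. DESeq2 also called 0, and edgeR without a count filter called 1 higher, Cd70, which was too low for the filter. Tnfsf13b, which encodes the B cell survival factor BAFF, averaged 2.99 ± 0.444 CPM in Nfkb2-/- Tregs against 1.64 ± 0.451 CPM in wild-type Tregs, and its log2 fold change was 0.87 (SE 0.32, adjusted p by edgeR = 0.287). Tnfsf4, which encodes OX40 ligand, was at 25.7 ± 8.18 and 12.7 ± 7.63 CPM, a log2 fold change of 1.04 (adjusted p by edgeR = 0.431). Its log2 fold change was 0.60 without wild-type replicate 1. Fasl, which encodes the death ligand of Fas, was at 14.7 ± 2.96 and 21.5 ± 13.7 CPM (log2 fold change -0.54, adjusted p = 0.734 by edgeR). Without wild-type replicate 1 it was called lower, at -0.99 (adjusted p by edgeR = 0.00322), as were 4.44% of all genes in that fit. This was the only call of Fasl among the 13 alternatives. Tnfsf9 was at 4.25 ± 0.298 and 3.25 ± 1.07 CPM (log2 fold change 0.38, adjusted p by edgeR = 0.681).

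The remaining 5 ligands were below the count filter. Cd70, the ligand of CD27, had 22 counts summed in Nfkb2-/- and 1 in wild type, a ratio of 24.6 after scaling for library size, with an exact 95% interval of 3.97 to 1014 that covers counting error only. Tnfsf12, Tnfsf18 and Eda had at most 2 counts in either genotype, and Tnfsf13 had 0 counts in all 6 libraries.

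Of 10 listed receptors of the 9 ligands, 8 passed the count filter, and 0 rose or fell by edgeR, beside 1.42% of all genes tested. At an unadjusted p under 0.05 there were 2, beside 13.6% of all genes tested. Tnfrsf25, which encodes the receptor of the Tnfsf15 product, averaged 78.7 ± 5.76 CPM in Nfkb2-/- Tregs against 79.9 ± 11.2 CPM in wild-type Tregs, and its log2 fold change was -0.02 with a 95% interval of -0.34 to 0.30 (adjusted p by edgeR = 0.966). Tnfrsf11a, which encodes RANK, the receptor of the Tnfsf11 product, was at 1.87 ± 0.482 and 0.542 ± 0.0522 CPM, without overlap (log2 fold change 1.77, SE 0.38, adjusted p by edgeR = 0.0728, DESeq2 adjusted p = 0.0436).

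Neither receptor of TNF was called with all 6 libraries. Tnfrsf1a, the broadly expressed receptor, averaged 27.7 ± 1.70 CPM in Nfkb2-/- Tregs against 40.1 ± 7.14 CPM in wild-type Tregs (log2 fold change -0.53, adjusted p by edgeR = 0.186, and 0.0154 without wild-type replicate 1). The fit without that library called 9.04% of all genes, and Tnfrsf1a was called in no other of the 13 alternatives. Tnfrsf1b, the receptor on which Tregs are known to depend for TNF responses, was at 1456 ± 178 and 1264 ± 353 CPM (log2 fold change 0.20, adjusted p by edgeR = 0.784), and its log2 fold change was -0.01 without wild-type replicate 1. Among the remaining receptors tested, the log2 fold change was 0.62 for Tnfrsf8 (95% interval -1.11 to 2.35), -0.55 for Tnfrsf14 (-1.25 to 0.16), -0.19 for Tnfrsf10b (-0.65 to 0.27) and -0.15 for Cd40 (-1.03 to 0.74). Without wild-type replicate 1 these were 0.06, -0.18, -0.33 and -0.44. Ltbr, the receptor of membrane lymphotoxin, had 11 counts summed in Nfkb2-/- and 9 in wild type, and Tnfrsf11b, which encodes the RANKL decoy osteoprotegerin, had 4 and 0, and neither passed the count filter.

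**Figure D4:**
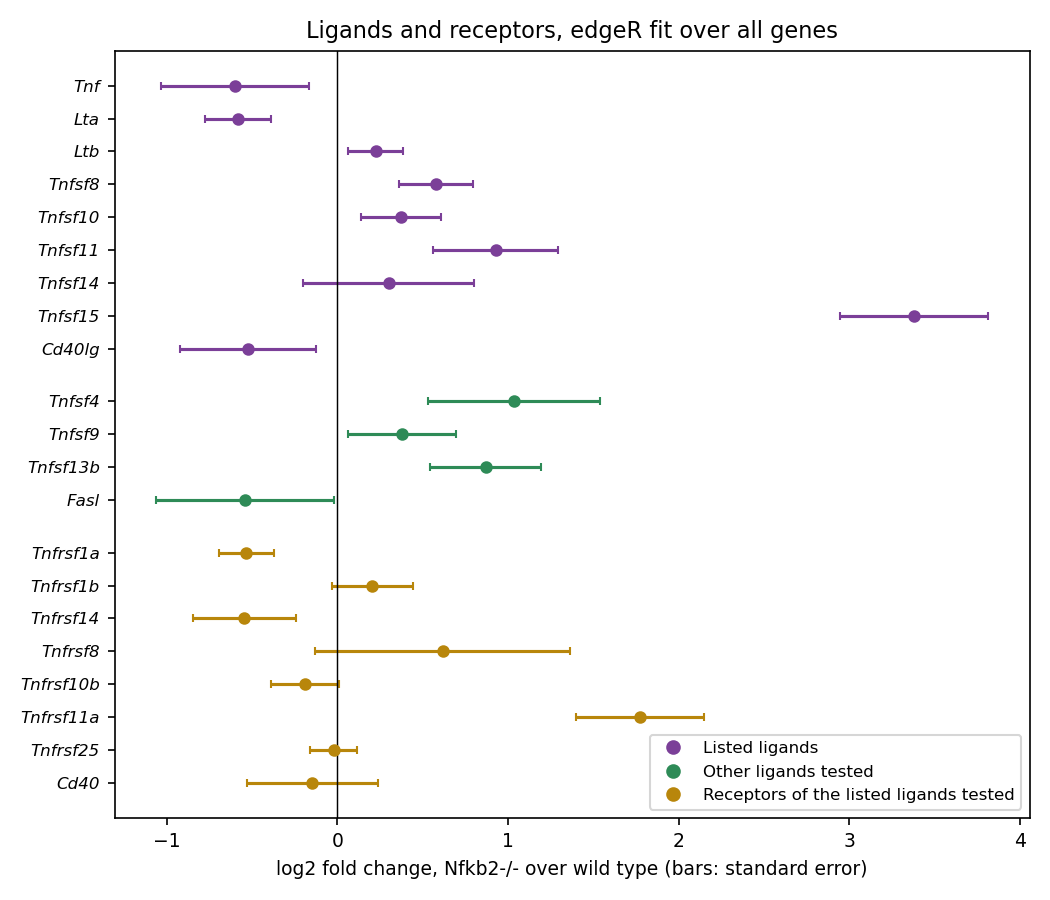
Log2 fold change of Nfkb2-/- over wild type with its standard error from the edgeR fit over all genes, for the 9 listed ligands (purple), the 4 other ligands tested (green) and the 8 receptors of the listed ligands tested (gold). Tnfsf15 lies at 3.38 while its receptor gene Tnfrsf25 lies at -0.02.

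Beside 1.01% of all genes tested that rose and 0.405% that fell, 1 of 10 other receptors of the family tested rose and 0 fell. It was Tnfrsf9, the receptor of the Tnfsf9 product, at 877 ± 44.4 CPM in Nfkb2-/- Tregs against 423 ± 32.4 CPM in wild-type Tregs (log2 fold change 1.05, adjusted p by edgeR = 0.0157). The call was lost without Nfkb2-/- replicate 1, 2 or 3 and without wild-type replicate 2, with adjusted p of 0.0784 to 0.126. Tnfrsf13c, the BAFF receptor gene of B cells, was at 1.28 ± 0.464 and 6.23 ± 3.23 CPM (log2 fold change -2.26, adjusted p by edgeR = 0.0820, and 0.0278 with the replicate number as a block), beside the lower B cell markers.

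Of 4 genes of ligand shedding 0 rose or fell, beside 1.42% of all genes tested. At an unadjusted p under 0.05 there was 1, beside 13.6%. Adam17, the TNF convertase, averaged 115 ± 3.93 CPM in Nfkb2-/- Tregs against 96.3 ± 3.32 CPM in wild-type Tregs (log2 fold change 0.26, adjusted p by edgeR = 0.341), and Adam10 was at 95.3 ± 7.40 and 118 ± 25.4 CPM (-0.31, adjusted p by edgeR = 0.502).

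Of 11 factors that bind AU-rich or stem-loop elements of mRNA 0 rose or fell, beside 1.42% of all genes tested. At an unadjusted p under 0.05 there were 3, beside 13.6%. Zfp36, which encodes tristetraprolin, the decay factor of Tnf mRNA, was at 189 ± 20.5 and 334 ± 116 CPM, without overlap (log2 fold change -0.82, adjusted p by edgeR = 0.186, and 0.000524 without wild-type replicate 1). Zfp36 was called in no other of the 13 alternatives, and the fit without that library called 9.04% of all genes. Its relative Zfp36l2 was at 315 ± 19.1 and 500.0 ± 49.4 CPM (-0.66, adjusted p by edgeR = 0.0614, DESeq2 adjusted p = 0.00139).

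Of 21 genes that signal downstream of the receptors, 1 rose (Birc2) and 1 fell (Nfkb2 itself), beside 1.01% and 0.405% of all genes tested. Birc2, which encodes the ubiquitin ligase cIAP1 that holds NIK in check, averaged 364 ± 21.1 CPM in Nfkb2-/- Tregs against 176 ± 35.7 CPM in wild-type Tregs (log2 fold change 1.05, adjusted p by edgeR = 0.0319). When any 1 library other than wild-type replicate 1 was left out, the edgeR adjusted p was 0.0709 to 0.184 for Birc2 and 0.0567 to 0.176 for Nfkb2. Traf3, which encodes the adaptor that brings NIK to cIAP1, was at 415 ± 67.8 and 200.3 ± 47.5 CPM (log2 fold change 1.05, adjusted p by edgeR = 0.0592). With the replicate number as a block it passed, at an adjusted p of 0.0236, which gave 2 genes higher. Map3k14, the gene of NIK, had a log2 fold change of -0.14 (95% interval -0.42 to 0.15).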

How the data were processed

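Reads per gene were counted in 6 Treg libraries. The deposited values are raw counts of reads per Ensembl gene, with no header and no unassigned lines. Per the submitters' processing notes FastQC, HISAT2, HTSeq and DESeq2 were used with GRCm38. Versions and counting mode are not given in the sources used here, and the kit was unstranded per the labels' protocols. GENCODE M21 (GRCm38) gave symbols for 55480 of 55573 genes, exon lengths and 3' untranslated regions, and RefSeq (GRCm38.p6) gave promoters.

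The test was edgeR's (version 4.0.16, R 4.3.3; filterByExpr with a minimum count of 10, TMM, robust quasi-likelihood fit, genotype as the only term) over all genes, with Benjamini-Hochberg adjustment and a threshold of 0.05. Standard errors and 95% intervals were derived from the quasi-likelihood F. The code was tested on simulated counts with the same spread for all genes and no library set apart. That test does not cover a library like wild-type replicate 1. Alternatives were RLE and upper-quartile scaling, 2 other filters, DESeq2 1.42.0, limma-voom (limma 3.58.1), a replicate block and leaving out each library. Pattern comparison used log2 CPM with a prior count of 2. Figures were drawn with matplotlib 3.10.9.

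The genes named are the 9 ligands, the other ligands and the receptors of the 9 ligands that passed the filter, up to 3 called or otherwise 2 genes of smallest p from each other list, and Nfkb2. Genes below the filter, Foxp3 and Il2ra, Map3k14 and marker sums are given besides, chosen after their values were seen. So are Tnfrsf13c, Traf3, Ikzf2, Eomes, Prf1, Gzma and Bcl6. Members and lists were chosen with earlier results of these data known. Every pair of libraries differed by more than counting noise (chi-square divided by its degrees of freedom was 5.82 to 106, with 20 as the minimum count of a gene), so all were kept as separate samples. That they are separate animals rests on the labels' term biological repeats, and p-values measure only the spread between these libraries. The correlations of the deviations from the genotype mean were 0.364, 0.267 and 0.111 for the libraries sharing a number. All were above 0.1, so the numbers were taken as pairs in an alternative fit, with the replicate number as a block. The main test had genotype as its only term and used no pairing. For Nfkb2-/- replicate 3 the correlation was higher with wild-type replicate 2, at 0.251. The labels do not say what a number marks.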

Additional observations from a re-analysis of the deposited data

How the results depend on the processing

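Directions of the 9 ligands held in the 13 alternatives run, other than Tnfsf14, which turned to -0.13 without wild-type replicate 1. With no count filter 292 genes were called higher and 174 lower, including 1 other ligand higher, 1 receptor lower, and 2 processing or signalling genes in each direction. DESeq2 called 398 and 235, with 3 receptors higher and 1 lower and 3 processing or signalling genes higher and 2 lower. The edgeR fit with the replicate block called 196 higher and 93 lower, with 1 receptor lower and 2 processing or signalling genes higher, and the block changed no other call among the listed genes.

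Leaving out each library in turn gave 6 to 628 genes higher and 1 to 606 lower, beside 135 and 54 with all 6. Ligands of the list called higher numbered 0 to 4 and lower 0 to 3, other ligands called lower 0 to 1, receptors higher 0 to 3 and lower 0 to 2, and processing or signalling genes higher 0 to 3 and lower 0 to 4. The highest counts came without wild-type replicate 1, and the cause was not tested. Mean levels per kilobase over the 6 libraries moved by less than the SD of those 6 with the longest transcript as length or with RLE scaling. With the longest transcript, the Nfkb2-/- mean of Tnfsf10 was 4.22 against 4.00 CPM per kb, more than its SD of 0.167 over the 3 Nfkb2-/- libraries. Depth limits the ligands and receptors below the count filter, and unstranded counts cannot separate antisense transcripts.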
